A study of Mus musculus with 6 samples.

Results

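Hoxa4, Hoxa5, Hoxa7 and the antisense transcript 2700086A05Rik were found in mouse brainstem gliomas without the histone mutation H3.3K27M and were at or close to 0 in those that carried it. These 4 transcripts of the HoxA cluster were picked by name from a deposited table of 223 genes that differ between the 2 kinds of tumour. They were chosen from that comparison, so their values across it are a description and carry no test. All 6 tumours arose in C57BL/6 mice of the genotype Nestin tv-a; p53 floxed. The Nestin tv-a transgene places an avian retrovirus receptor on nestin-expressing progenitors, so the model reaches only those cells directly. Of these, 3 tumours combine PDGF-B, p53 loss and H3.3K27M, and the other 3 combine PDGF-B and p53 loss and carry H3.3WT in their titles. All 6 thus share the PDGF-B growth factor signal and p53 loss. The labels do not give the age of the animals, how p53 was removed or whether H3.3WT was introduced.

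Hox genes encode homeodomain transcription factors that give cells their position along the body axis. In the nervous system they are used in the hindbrain and spinal cord and are kept silent in the forebrain and midbrain. Silent Hox clusters are a classic target of the Polycomb complex PRC2, which methylates lysine 27 of histone H3, and H3.3K27M inhibits that complex. Hoxa4 and Hoxa5 act in the caudal hindbrain and cervical cord, where Hoxa5 is needed for motor neurons that drive breathing. Hoxa7 acts further caudally. The transcript 2700086A05Rik, which GENCODE M21 names Hoxaas3 under the same gene ID, is a noncoding RNA made from the opposite strand of the cluster.

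Promoter sequences are shown because the 4 transcripts were all lower with H3.3K27M. RefSeq windows of 300 bases (250 before and 50 after a gene start, build GRCm38.p6) were held for 2 of the 4, Hoxa5 and Hoxa7. Both lie on the minus strand of chromosome 6, at chr6:52204538-52204837 for Hoxa5 and chr6:52218524-52218823 for Hoxa7. Capitals mark CG dinucleotides, the sites of DNA methylation that are dense in the CpG islands to which Polycomb complexes are recruited.
Hoxa5: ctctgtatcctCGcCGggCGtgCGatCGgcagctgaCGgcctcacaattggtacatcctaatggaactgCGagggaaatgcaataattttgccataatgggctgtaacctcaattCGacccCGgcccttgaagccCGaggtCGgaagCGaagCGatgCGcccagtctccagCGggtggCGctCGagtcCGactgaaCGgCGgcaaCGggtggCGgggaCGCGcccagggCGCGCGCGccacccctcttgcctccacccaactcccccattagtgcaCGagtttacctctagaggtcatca
Hoxa7: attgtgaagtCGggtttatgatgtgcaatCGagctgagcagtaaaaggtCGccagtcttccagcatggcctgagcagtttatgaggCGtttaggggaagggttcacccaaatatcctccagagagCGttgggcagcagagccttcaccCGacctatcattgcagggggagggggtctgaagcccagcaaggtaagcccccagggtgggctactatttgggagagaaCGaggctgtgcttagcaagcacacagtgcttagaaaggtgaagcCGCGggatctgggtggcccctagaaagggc
The Hoxa5 window holds 29 CG dinucleotides, and 12.9% of 32851 RefSeq promoter windows of this length hold at least as many. The Hoxa7 window holds 9, which 45.8% of windows reach, against a median of 7. It lies inside the GENCODE M21 span of Hoxa7 and not at the 5′ end of that span, so other Hoxa7 starts may differ. The homeodomain core TAAT, searched on both strands, occurs 4 times in the Hoxa5 window and 0 times in the Hoxa7 window, and 58% of all windows hold it. The nuclear receptor half-site AGGTCA, to which retinoic acid receptors bind, occurs 1 time in the Hoxa5 window and is not in the Hoxa7 window, and 16.3% of windows hold it. The Pbx-Hox letters TGATNNAT were found in neither window (8.85% of windows hold them). CCAAT was found 1 time, for Hoxa5, and 37.4% of windows hold it. Matches were counted also where they share letters with one another, and they describe letters only.

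The table holds normalized read counts, which are reads divided by a library size factor, in each tumour. The 223 listed genes are 1.36% of 16365 gene tests at an adjusted p under 0.05, and 182 of them were higher and 41 lower with H3.3K27M. The 4 members are among the 41 lower genes, which are 0.251% of the tests. Each library held from 215758 to 277881 reads in the listed genes, and total depth is unknown. The genes that define the genotypes (Pdgfb, Trp53, H3f3a and H3f3b) have no row, so the labels were not checked against them. The number that opens each title, 12 with the mutation and 11 without, splits the tumours as the mutation does, so whatever it marks cannot be told apart from the mutation. In bulk tumour RNA, fewer cells that express a gene and less of its RNA per cell cannot be told apart.

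Hoxa4 (ENSMUSG00000000942) was at 43.3, 118 and 241 normalized counts in replicates 1, 2 and 3 without H3.3K27M and at 0, 0 and 1.93 in H3.3K27M replicates 1, 2 and 3. The groups did not overlap, as in 99.6% of the listed genes, and the tumours without the mutation were far from alike. Hoxa5 (ENSMUSG00000038253) was at 59.4, 103 and 329 without the mutation and at 0, 0 and 1.93 with it. For both genes the H3.3K27M value of 1.93 stands for 2 reads, and replicate 3 of that group held all 4 HoxA reads seen among the mutant tumours. The title of that replicate also differs from the other H3.3K27M titles in its middle number, and the labels do not say what this marks. Hoxa7 (ENSMUSG00000038236) was at 11.1, 33.2 and 34.9 without the mutation and at 0 in each H3.3K27M tumour. The antisense 2700086A05Rik (ENSMUSG00000085696) was at 8.05, 25.4 and 32.7 without it and at 0 in each tumour with it. Of the listed genes, 3 (1.35%) were at 0 in all H3.3K27M tumours, these 2 and the predicted gene Gm4631. A count of 0 allows up to 3 reads (a one-sided limit), which is 2.83 to 3.10 normalized counts in these libraries.

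**Figure D1:**
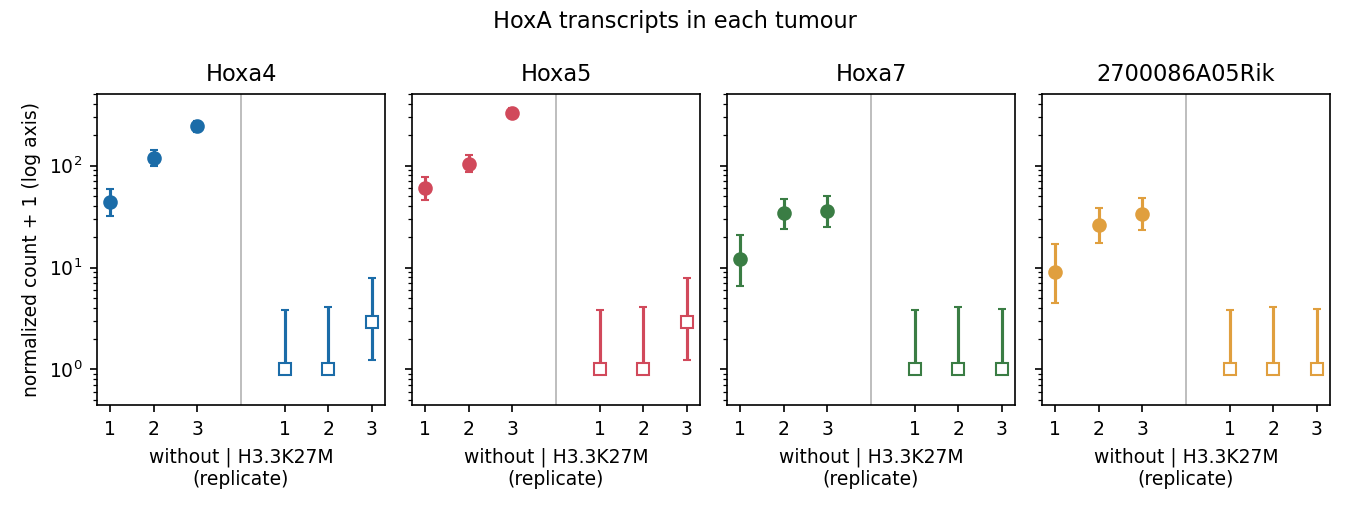
Normalized count + 1 on a log axis for each HoxA transcript in each tumour, with filled circles for the 3 tumours without H3.3K27M and open squares for the 3 with it; bars are exact 95% Poisson intervals of the reads, or reach up to the limit of 3 reads at a count of 0, and cover counting error only. Every filled circle lies above every open square of its panel, and the lowest filled circle is replicate 1 in all 4 panels.

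Summed over the 4 transcripts, the HoxA signal was 122, 280 and 638 normalized counts in the tumours without H3.3K27M and 0, 0 and 3.86 in those with it. In pooled reads this was 993 against 4, a 259-fold lower level with an exact 95% counting interval of 101 to 954. That interval covers counting error only and leaves out the spread among tumours, which was 5.24-fold for the sum without the mutation. Without replicate 3 of the tumours lacking the mutation the summed level was 155-fold lower, and without H3.3K27M replicate 1 it was 170-fold lower. Without H3.3K27M replicate 3, which leaves 0 reads, it was at least 229-fold lower (limit of 3 reads over the group). Of the members, Hoxa5 lay closest to the threshold of the authors' deposited table, with an adjusted p of 0.0319 where the largest listed value is 0.0495. Hoxa7, with the smaller counts, had the lowest adjusted p of the 4 there, at 0.00193. Both abundant genes had the wider relative spread among tumours without the mutation, with a mean of 134 ± 99.9 for Hoxa4 and 164 ± 145 for Hoxa5 (SD, n = 3). The mean was 26.4 ± 13.3 for Hoxa7 and 22.0 ± 12.7 for the antisense transcript (SD, n = 3).

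In normalized counts the 4 transcripts shared 1 order among the tumours without H3.3K27M, with the lowest value in replicate 1 and the highest in replicate 3. The middle number in the titles of these tumours also rises from replicate 1 to replicate 3, and the labels do not say what it marks. In unscaled reads Hoxa7 had 11, 34 and 32 and was highest in replicate 2, so its place in that order depends on the scaling. Of all listed genes, 34 (15.2%) had this order, and of the 41 lower genes 10 (24.4%). Both counts include the 4 members, which raise the share among the lower genes most. The sizes differed between the members. Hoxa4 was 2.73-fold higher in replicate 2 than in replicate 1 (exact 95% counting interval 1.91 to 3.96) and 2.04-fold higher in replicate 3 than in replicate 2 (1.63 to 2.57). Hoxa5 was 1.74-fold higher in replicate 2 than in 1 (1.26 to 2.44) and 3.18-fold higher in replicate 3 than in 2 (2.54 to 4.01). Hoxa7 was 3.0-fold higher in replicate 2 than in 1 (1.48 to 6.56), but its ratio of replicate 3 to 2 was 1.05 (0.628 to 1.76). For the antisense transcript these ratios were 3.15 (1.39 to 8.05) and 1.29 (0.737 to 2.27). Thus all 4 were lower in replicate 1 beyond counting error, and Hoxa4 and Hoxa5 alone were higher in replicate 3 than in replicate 2 beyond it. The intervals of the replicate 3 to 2 ratio of Hoxa5 and Hoxa7 did not overlap.

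**Figure D2:**
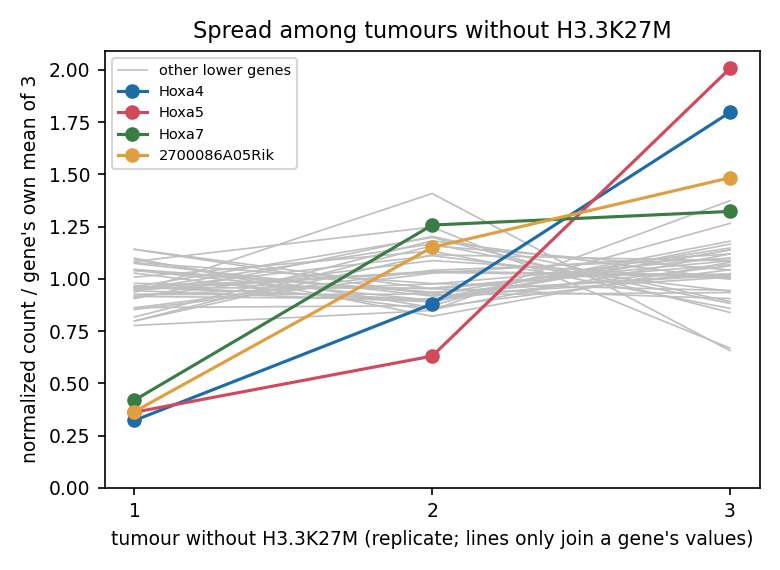
Normalized count of each gene divided by its own mean over the 3 tumours without H3.3K27M, for the 4 HoxA transcripts (coloured) and the 36 other genes lower with H3.3K27M that were above 0 in these tumours (grey). In replicate 1 the HoxA transcripts lie between 0.323 and 0.420 of their mean and the grey lines between 0.777 and 1.14.

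The highest tumour exceeded the lowest by 5.57-fold for Hoxa4, 5.55-fold for Hoxa5, 3.15-fold for Hoxa7 and 4.06-fold for the antisense transcript. Among the 40 lower genes above 0 in all 3 tumours these were ranks 1, 2, 4 and 3. The 36 others had a median ratio of 1.27 and a highest ratio of 2.15. The lower gene left out of these ranks, Gm4631, was at 0, 2494 and 1362 normalized counts in replicates 1, 2 and 3, so its spread was wider than that of any HoxA transcript, and it too was lowest in replicate 1. The ratios rest on the outer tumours: without replicate 1 they were 2.04, 3.18, 1.05 and 1.29 for Hoxa4, Hoxa5, Hoxa7 and the antisense, and without replicate 3 they were 2.73, 1.74, 3.0 and 3.15. Higher genes varied more among the same tumours, with a median of 1.59 over 173 genes, and among all 213 genes the members ranked 7, 8, 28 and 17. Level bears on such a ratio. Of 71 other listed genes with a mean between 22.0 and 164 in these tumours, the members' range, 10 exceeded the ratio of Hoxa7 and 2 that of Hoxa4, and their median was 1.81. Just 2 of those 71 were lower genes, Gata6 at 1.77 and Foxf1a at 1.24. The rank is given with no test, since small counts spread more and the table was chosen from the same tumours.

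The makeup of the HoxA reads differed between tumours less than their sum. Hoxa5 held 48.8%, 36.9% and 51.6% of the 4 transcripts' reads in replicates 1, 2 and 3 without H3.3K27M, with exact (Clopper-Pearson) 95% intervals of 39.6 to 58.0%, 31.3 to 42.8% and 47.5 to 55.7%. Replicate 2 was the low one, and its interval did not overlap that of replicate 3. Hoxa4 held 35.5%, 42.2% and 37.8%, with overlapping intervals. Hoxa7 held 9.09%, 11.8% and 5.47% of 121, 287 and 585 reads, and the interval in replicate 2 (8.35 to 16.2%) lay above that in replicate 3 (3.77 to 7.63%). The antisense transcript held 6.61%, 9.06% and 5.13%. The ratio of antisense to Hoxa7 reads was 0.727, 0.765 and 0.938 in the 3 tumours, the steadiest of the 6 pairs, as its highest value exceeded its lowest by 1.29-fold. For Hoxa7 to Hoxa5 the same quantity was 3.03, the widest of the 6 pairs. With 8 to 34 reads of each, the antisense to Hoxa7 ratio had wide intervals. They were 0.254 to 1.99, 0.441 to 1.31 and 0.550 to 1.59 in replicates 1, 2 and 3, so the place of this pair among the 6 is uncertain. These are also the only 2 members whose exons share bases, and the part of shared reads in this ratio was not tested.

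**Figure D3:**
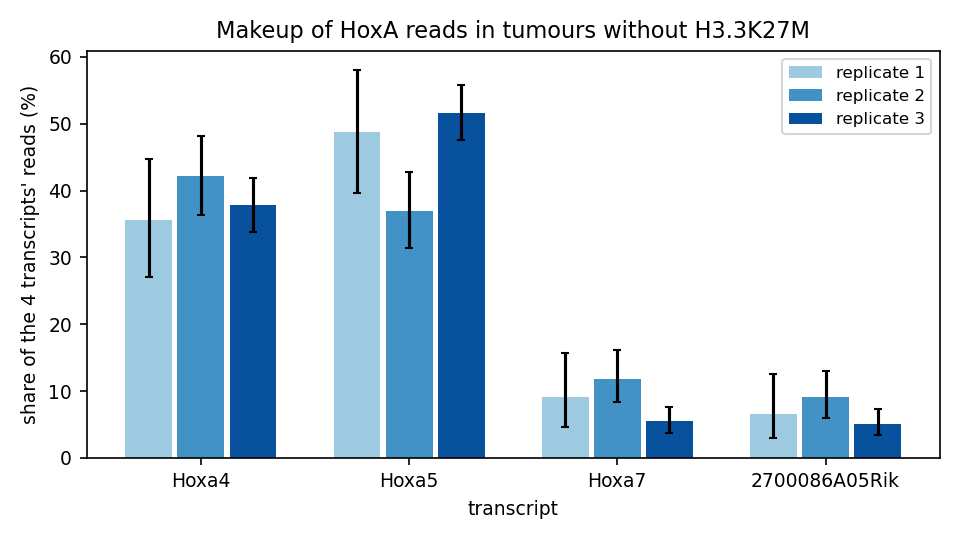
Share of the 4 transcripts' reads (%) held by each transcript in the 3 tumours without H3.3K27M; bars are the share and whiskers exact 95% binomial intervals. Hoxa5 was at 36.9% in replicate 2 against 48.8% and 51.6%, and Hoxa7 at 11.8% in replicate 2 against 5.47% in replicate 3.

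The gene models bear on how reads can be told apart. In GENCODE M21 (GRCm38, not the mm9 models of the deposited counts), the span of the antisense gene covers Hoxa4, Hoxa5 and the 3′ end of Hoxa7, but its exons share 0 bases with those of Hoxa4 and 0 with those of Hoxa5. They share 586 bases with Hoxa7, which is 20.4% of the 2876 exon bases of Hoxa7 and 20.3% of the 2889 of the antisense gene. They also share 297 bases with Hoxa3, a gene with no value here. Hoxa4 shares 255 of its 1594 exon bases with another antisense gene, Gm29430, and Hoxa5 shares 0 of 1877 with any gene. Since the use of strand is not stated, reads in the shared stretch of Hoxa7 and its antisense partner cannot be told apart, and their levels are uncertain to that extent. Per kilobase of M21 exon, the mean level without the mutation was 84.1 ± 62.6 normalized counts for Hoxa4 and 87.4 ± 77.2 for Hoxa5, against 9.17 ± 4.62 for Hoxa7 and 7.63 ± 4.38 for the antisense transcript (SD, n = 3). On this scale Hoxa5 was above Hoxa4 in replicates 1 and 3 and below it in replicate 2. No interval was computed per kilobase, and that of their read ratio spanned 1 in replicate 1 (0.911 to 2.08). The order of Hoxa4 and Hoxa5 on this scale is therefore uncertain. Hoxa7 was above the antisense in each tumour, but the intervals of their read ratio all spanned 1. In each of the 3 tumours both Hoxa4 and Hoxa5 were above both Hoxa7 and the antisense.

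**Figure D4:**
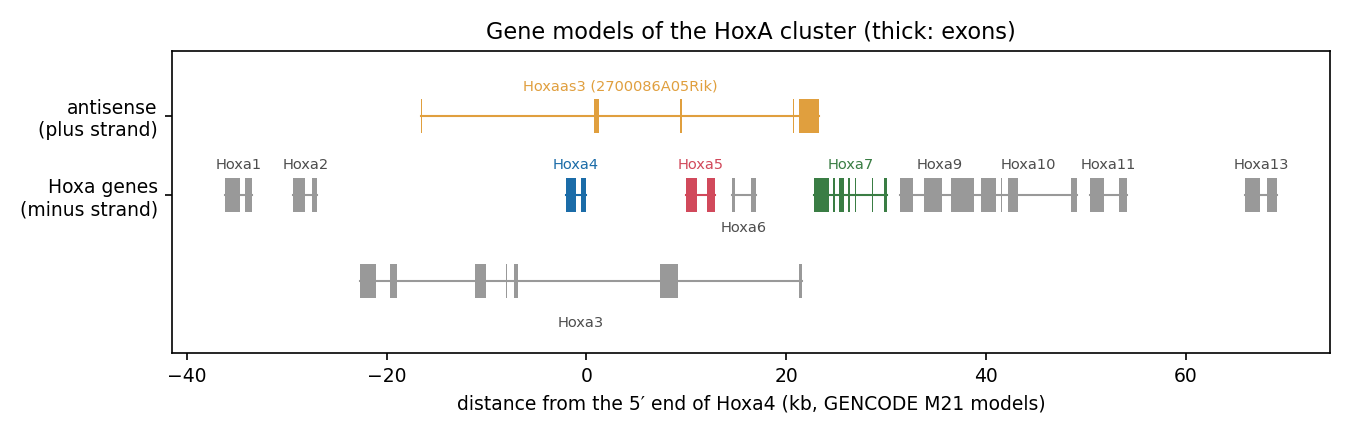
Gene models of the HoxA cluster in GENCODE M21, as distance in kb from the 5′ end of Hoxa4, with exons as thick blocks; coloured genes are those with values here and grey ones have none. The last exon of the antisense gene runs into the end of Hoxa7, and its other exons share no bases with those of Hoxa4 and Hoxa5.

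The other genes of the Hox system were mostly not in the table. Of 39 Hox genes in 4 clusters, 3 are listed, all lower, and all are from the 11 genes of HoxA. Of 19 entries of the HoxA list, which also holds cluster noncoding RNAs and Evx1, 4 are listed. From the lists of HoxB, HoxC and HoxD genes, of upstream regulators such as Cdx and retinoic acid genes, of Polycomb members and of trithorax members, 0 are listed. A gene outside the table has no value here, and its absence does not show that it was silent or equal. Of 9 Hox cofactors, which bind DNA together with Hox proteins, Pbx3 is listed, as higher. Pbx3 was at 199, 231 and 280 normalized counts in replicates 1, 2 and 3 without the mutation and at 806, 636 and 516 with it. The groups did not overlap, as in 99.6% of the listed genes, and the direction of Pbx3 between the groups was opposite to that of the Hox genes. Among the tumours without the mutation Pbx3 had the order of the HoxA transcripts, as did 15.2% of the listed genes. On chromosome 6 the table holds 16 genes, matched by ID to M21 (220 of 223 matched), of which 5 were lower, the 4 members and Cd9. Over all 223 listed genes 41 were lower, and the 4 members were chosen from this contrast. The nearest listed gene outside the cluster was Cntnap2, 4.87 Mb away, which was higher.

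The listed genes with profiles closest to the mean of the 4 HoxA transcripts over the 6 tumours were Gata6, 1110050K14Rik, Lhx2, Foxf1a and Hlx. Closeness is the root mean square difference of log2(normalized count + 1), each gene centred on its own mean. It was 1.12, 1.48, 1.52, 2.01 and 2.08 log2 units, against a median of 3.45 over all listed genes. The profile includes the difference between the groups, on which the members were chosen. The members lay at 0.50 to 0.64, which their own part in the mean keeps small. Gata6, a GATA-binding factor of heart and gut endoderm, was at 87.6, 95.6 and 155 normalized counts without the mutation and at 3.77, 5.16 and 25.1 with it. Lhx2, a LIM homeobox factor of the forebrain and eye, was at 262, 264 and 384 without it and at 39.6, 32.0 and 95.4 with it. Both shared the order of the HoxA transcripts among tumours without H3.3K27M, and both were highest in replicate 3 of the H3.3K27M tumours, the one with HoxA reads. The low replicate 1 without the mutation was much less marked in these genes. There Gata6 was at 0.777 and Lhx2 at 0.863 of its mean in that group, against 0.323 to 0.420 for the HoxA transcripts. 1110050K14Rik was at 160, 241 and 112 without the mutation and at 15.1, 15.5 and 37.6 with it, so its lowest tumour without H3.3K27M was the one highest in HoxA. Foxf1a, a forkhead factor of mesenchyme, and Hlx, a homeobox factor of visceral mesenchyme, spread by 1.24-fold and 1.12-fold without the mutation and lacked the HoxA order. All 5 genes were highest in replicate 3 among the H3.3K27M tumours, which the choice favours, as the HoxA profile is highest there too. Of the 41 lower genes 16 (39%) were highest in that tumour, and of all listed genes 105 (47.1%).

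**Figure D5:**
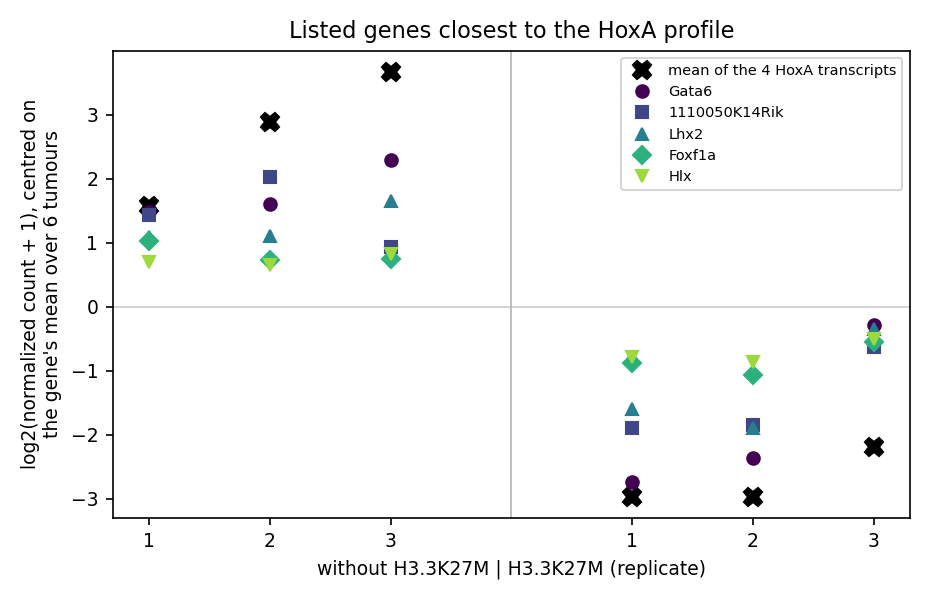
log2(normalized count + 1), centred on each gene's mean over 6 tumours, for the mean of the 4 HoxA transcripts (black crosses) and the 5 listed genes closest to it. The crosses spread from 1.57 to 3.67 without H3.3K27M, and the 5 genes sit nearer to 0 in H3.3K27M replicate 3 than in replicates 1 and 2.

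Markers of position and of cell types also moved between the same tumours. Over all gene tests 1.36% are listed, and 182 of the 223 listed genes were higher with H3.3K27M. Of 13 forebrain and midbrain factors, Otx2 and Lhx2 are listed, in opposite directions. Otx2 was at 28.2, 48.8 and 0 normalized counts in replicates 1, 2 and 3 without the mutation and at 239, 153 and 226 with it, so Otx2 was at 0 in the tumour highest in HoxA. The summed level of those 2 factors was 290 to 384 without the mutation and 185 to 321 with it. Barhl1, which acts in developing cerebellar neurons and is 1 of 10 genes on its list, was at 8.05, 6.83 and 1.09 without the mutation and at 51.9, 28.9 and 66.5 with it. Of 18 neuron markers 6 are listed, all higher, and their summed level was 1247, 884 and 455 in replicates 1, 2 and 3 without the mutation and 2561 to 6428 with it. Among the tumours without H3.3K27M it was thus lowest where the HoxA transcripts were highest. The 2 listed of 8 astrocyte markers summed to 261 to 416 against 698 to 1130 with the mutation, and the 2 of 7 fibroblast and mural markers to 200 to 424 against 872 to 1489. The fibroblast and mural sum (Lum and Dcn) was 200, 244 and 424 in replicates 1, 2 and 3 without H3.3K27M, in the order of the HoxA transcripts there, while both markers were higher with the mutation. The astrocyte sum was 285, 261 and 416 in the same tumours, also highest in replicate 3. The 2 listed of 8 oligodendrocyte precursor markers, both lower, summed to 14923 to 16568 against 9227 to 12043. Ermn, 1 of 7 myelin markers, was at 18.5 to 31.2 against 80.6 to 217, and Chi3l3, 1 of 8 microglia and macrophage markers, at 0 to 1.95 against 12.4 to 39.5. Of 5 endothelial markers and of 12 markers of blood cells, some of which express HoxA genes, 0 are listed. Chi3l3 and Otx2 were the markers listed at 0 in a tumour. The part of any of these in the HoxA values was not tested.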

How the data were processed

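RNA sequencing of 6 tumours was used, with groups from the sample descriptions and replicates numbered in sample order; the design text calls the tumours independent. Per the labels' protocols, total RNA of snap-frozen tumours was sequenced on Illumina libraries by a service provider. Per the submitters' processing notes, DESeq and the builds mm9 and NCBIM37 were used; the sources used here do not give the aligner, counter or use of strand. Per its title line, the deposited table lists differing genes. The authors deposited normalized counts (a signal) per tumour and as group means, a fold ratio with its log2, and p-values before and after adjustment. The Benjamini-Hochberg formula returned every deposited adjusted p with 16365 tests. The full hyphenated number in each title tied a column to its tumour, and 0 per-tumour columns were without a sample.

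Every value was a whole multiple of 1 step per column, within 0.01. Implied size factors lay between 0.917 and 1.06 with a geometric mean of 0.999, and the steps were read as single reads. That reading is not stated by the authors, and all reads and intervals rest on it. Intervals (exact, 95%) and the limit of 3 reads behind a 0 cover counting error only. No count test was run, since the table is selected and the members were chosen from this contrast. Log values used a pseudocount of 1, which shrinks changes of low genes. Step and test-number recovery was tested on simulated data. The members and lists were chosen with earlier results of these data known. Named genes are the members, listed genes of the Hox and regulator lists, the 5 closest profiles, and listed genes within 5 Mb on chromosome 6; Gm4631, Cd9 and the markers of cell types were named beside counts. Alternatives were other pseudocounts, unscaled reads, a filter at a mean of 50 and leaving out each tumour. Python 3.11.15, pandas 2.3.3 and scipy 1.17.1 were used. GENCODE M21 and RefSeq (GRCm38) gave names, gene models and promoters.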

Additional observations from a re-analysis of the deposited data

How the results depend on the processing

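The log2 difference between H3.3K27M and other tumours, on log2(normalized count + 1), was -6.24 (Hoxa4), -6.48 (Hoxa5), -4.62 (Hoxa7) and -4.32 (2700086A05Rik). It was negative under all alternatives run, as it had to be, since every member was higher in each tumour without the mutation than in any with it. With a pseudocount of 5 it was -4.35, -4.57, -2.54 and -2.30, and with 0.5 that of Hoxa7 was -5.58, since the pseudocount sets the level of a 0. Leaving out each tumour gave ranges of -6.89 to -5.67, -7.02 to -5.79, -5.13 to -4.34 and -4.90 to -3.95 in the same order. The ratio of the highest to the lowest tumour without H3.3K27M rests on single tumours. Without replicate 1 it was, again in that order, 2.04, 3.18, 1.05 and 1.29. Without replicate 3 it was 2.73, 1.74, 3.0 and 3.15. The range over tumours left out ran up to 5.57, 5.55, 3.15 and 4.06. Unscaled reads moved none of these ratios beyond its counting interval, but with them the highest tumour for Hoxa7 was replicate 2 (34 reads) and not replicate 3 (32 reads). With a filter at a mean of 50 normalized counts, 31 listed genes had the HoxA order against 34, and 29 had it in unscaled reads (an alternative chosen after seeing the data), and the 5 closest genes were the same under both alternatives tried. No paired analysis was possible because the labels give no replicate numbers shared between groups.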
